A study of Homo sapiens with 8 samples.

Results

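The transcripts described here encode 10 plasma cell surface proteins that are targets, or proposed targets, of antibodies and engineered T cells in multiple myeloma. TNFRSF17, GPRC5D, SLAMF7, CD38, FCRL5, SDC1, TNFRSF13B, CD28, CD27 and LY9 were taken by symbol from a table of 25906 genes, and all 10 were present. Their RNA was sequenced in MM.1S and NCI-H929, which are both established lines from human multiple myeloma. The cells had received, by lentivirus 72 hours earlier, either an empty vector (EV) or the transcriptional corepressor CTBP2. Each line and vector had 2 libraries, named as biological duplicates, which makes 4 groups and 8 libraries. All cells carried a lentiviral vector, so no group was untransduced, and each line stands for 1 tumour. The values were FPKM, the fragments of a gene scaled by transcript length and library size, which can be compared between genes.

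The line of each library was read from expression, with CCND2 above 10 FPKM taken as MM.1S and FGFR3 above 10 FPKM as NCI-H929. In 6 libraries this reading and the label gave the same line. The exceptions were the replicate 2 libraries with CTBP2: the library labelled MM.1S had CCND2 at 0.0582 and FGFR3 at 22.2 FPKM, while the library labelled NCI-H929 had 60.7 and 0.0399 FPKM. Both therefore carried the line genes of the other line, and below they stand with the line they read as. The counts for each comparison, and most values of single genes, are also given without these 2 libraries, and the counts of the 10 genes also with lines as labelled. Without them the CTBP2 group of each line is replicate 1 alone. Within-line changes and line differences then rest on that library, and the spread within its group is not measured. CTBP2 itself was at 0.148 to 0.213 FPKM in the 4 empty vector libraries and at 1621 to 5884 FPKM in the 4 CTBP2 libraries, so the vector labels held in all 8 and the CTBP2 level was far above that of the lines. An estimate of depth from the spacing of low FPKM gave 16000000 to 21000000 fragments per library. All 9 plasma cell markers checked were present, with summed levels of 3562 to 6566 FPKM in empty vector and 2512 to 6347 FPKM in CTBP2 libraries. MYC and IRF4, the factors in the series title, were at 92.9 to 189.9 and 131.9 to 160.3 FPKM with empty vector, and at 26.8 to 138.7 and 59.7 to 69.6 FPKM with CTBP2. In RNA from whole cultures, fewer cells of a type and less RNA per cell cannot be told apart.

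Plasma cells and myeloma cells display a characteristic set of surface proteins. TNFRSF17 encodes BCMA, a receptor for the survival cytokines BAFF and APRIL, and TNFRSF13B encodes TACI, a related receptor for both. GPRC5D is an orphan G protein-coupled receptor with narrow expression in normal tissue. SLAMF7 and LY9 belong to the SLAM family of immune cell adhesion and signalling receptors. CD38 is an ectoenzyme that consumes NAD, FCRL5 is an Fc receptor-like protein of the B lineage, and SDC1, or CD138, is a heparan sulfate proteoglycan that carries growth factors. CD28 and CD27 are costimulatory receptors of lymphocytes, with ligands CD80 and CD86 for CD28 and CD70 for CD27.

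Upstream sequence from RefSeq (GRCh38.p14) was at hand for 7 of the 10 genes, all but TNFRSF17, SLAMF7 and LY9. Sequences are shown for 3 genes whose transcripts passed the test for a change with CTBP2 and for TNFRSF13B, whose level differed most between the lines. Each is the 250 bases before the listed transcription start, 5' to 3' on the gene's own strand. They lie at chr12:12952171-12952420 on the minus strand for GPRC5D, chr17:16972119-16972368 on the minus strand for TNFRSF13B, chr1:157552516-157552765 on the minus strand for FCRL5 and chr2:203706389-203706638 on the plus strand for CD28. The bases just after the listed start were found near the 5' end of a GENCODE transcript of the same gene for FCRL5, CD28, CD38 and TNFRSF13B, and not for GPRC5D, CD27 and SDC1, so for those 3 genes the start was not matched in a second annotation. Capitals mark a match, on either strand, to one of the motifs searched.
GPRC5D: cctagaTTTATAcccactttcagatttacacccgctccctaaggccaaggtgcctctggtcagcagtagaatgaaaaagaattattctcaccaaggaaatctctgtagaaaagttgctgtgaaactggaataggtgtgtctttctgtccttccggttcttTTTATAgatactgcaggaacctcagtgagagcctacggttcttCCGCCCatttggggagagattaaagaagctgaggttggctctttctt
TNFRSF13B: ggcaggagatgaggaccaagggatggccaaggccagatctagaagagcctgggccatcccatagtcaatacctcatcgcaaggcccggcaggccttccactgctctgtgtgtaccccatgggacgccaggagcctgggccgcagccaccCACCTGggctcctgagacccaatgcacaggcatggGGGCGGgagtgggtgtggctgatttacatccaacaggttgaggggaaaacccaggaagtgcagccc
FCRL5: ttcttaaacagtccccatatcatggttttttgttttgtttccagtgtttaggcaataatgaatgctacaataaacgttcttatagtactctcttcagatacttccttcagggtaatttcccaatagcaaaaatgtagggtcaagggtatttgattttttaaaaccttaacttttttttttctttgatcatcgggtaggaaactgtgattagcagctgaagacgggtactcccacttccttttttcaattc
CD28: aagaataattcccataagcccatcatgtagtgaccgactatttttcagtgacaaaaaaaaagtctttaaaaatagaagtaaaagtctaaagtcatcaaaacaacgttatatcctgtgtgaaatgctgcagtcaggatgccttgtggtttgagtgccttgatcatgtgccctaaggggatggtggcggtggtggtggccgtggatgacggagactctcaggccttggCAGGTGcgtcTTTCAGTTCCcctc
The motifs were an interferon response element of IRF factors (a repeat of the GAAA core after any 2 bases), an ETS-IRF element (a GGAA core and a GAAA core with any 2 bases between), CAGGTG (an E-box of ZEB factors), CACGTG (an E-box of MYC and MAX), GGGCGG (a GC box) and TATAAA. The ETS-IRF letters were in the windows of CD28 and CD38 and in 2.41% of 35116 promoter windows of this length. CAGGTG was in those of CD27, CD28, CD38, SDC1 and TNFRSF13B and in 17.5% of all windows. GGGCGG was in the windows of GPRC5D, SDC1 and TNFRSF13B, against 42.6% of all, and TATAAA in that of GPRC5D, against 10.7%. No window of the 7 genes held the interferon response element or CACGTG, which were in 3.02% and 6.34% of all windows, and the FCRL5 window held none of the motifs. A match is a run of letters, and no binding was measured.

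With empty vector, the levels of several target transcripts differed between the lines. NCI-H929 had more TNFRSF17 and FCRL5, and MM.1S had more TNFRSF13B, SLAMF7 and LY9. In MM.1S the order from high to low mean was SDC1, TNFRSF17, SLAMF7, TNFRSF13B, GPRC5D, CD28, LY9, CD38, CD27 and FCRL5. The libraries of SDC1 and TNFRSF17 overlapped, as did those of TNFRSF13B and GPRC5D. In NCI-H929 it was TNFRSF17, SDC1, SLAMF7, CD28, GPRC5D, LY9, CD38, FCRL5, CD27 and TNFRSF13B, where the libraries of CD27 and TNFRSF13B overlapped and those of CD28 and GPRC5D came within 1 FPKM of each other. Among the 12583 genes tested (at least 1 FPKM in at least 2 libraries), TNFRSF17 sat at percentile 98.2 in MM.1S and 99.0 in NCI-H929, and SDC1 at 98.4 and 97.8. Between the lines 5 of the 10 genes passed limma's test at an adjusted p of 0.05 over all genes tested, against a background of 50.8% of genes, so the share was near that of all genes. The libraries of the lines lay apart for 7 of the 10, against 79.2% of all genes. Fewer of the 10, and fewer of all genes, passed without NCI-H929 EV replicate 1. Without the 2 libraries whose line genes went against their labels the count was 6, with GPRC5D added, and the background 55.7%. With lines as labelled 0 passed, against 0.0397%, and 3 had an unadjusted p under 0.05, and the spread in that fit takes in the 2 libraries.

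**Figure D1:**
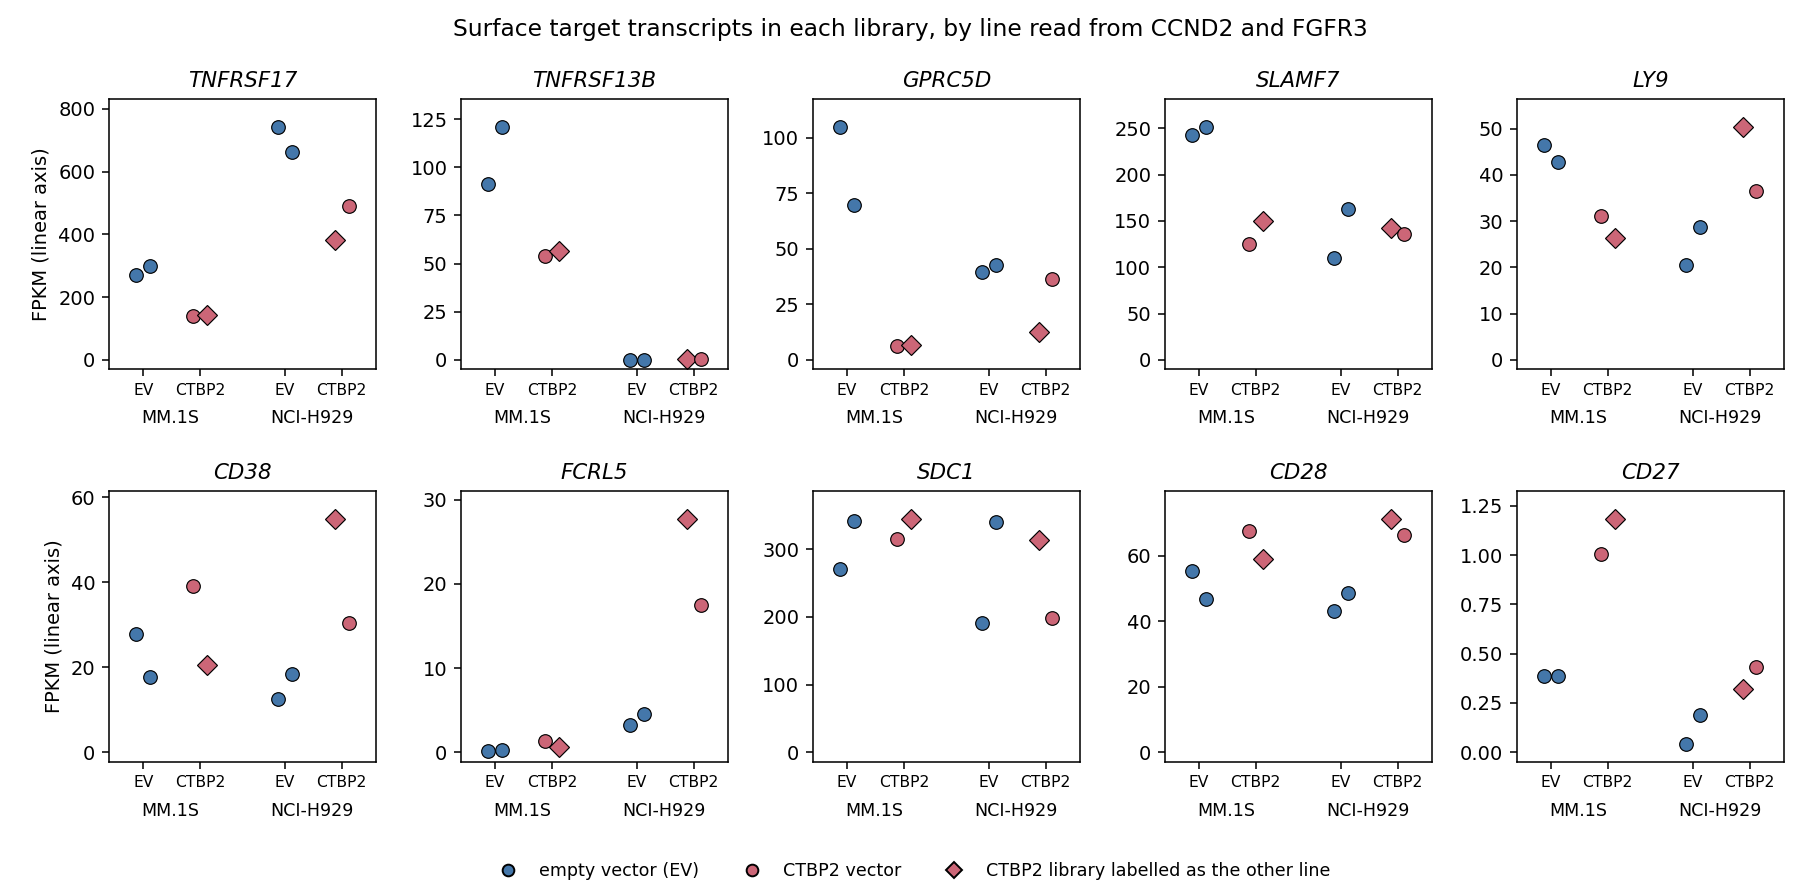
FPKM (linear axes) of the 10 surface target transcripts in each of the 8 libraries, by line read from CCND2 and FGFR3 and by vector (EV, empty vector). Each point is 1 library and diamonds are the 2 CTBP2 libraries labelled as the other line. GPRC5D lies below 7 FPKM in both MM.1S CTBP2 libraries, and FCRL5 lies above 17 FPKM in both NCI-H929 CTBP2 libraries.

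Taking both lines together in a model of line and vector, 5 of the 10 genes passed, 3 higher and 2 lower with CTBP2. FCRL5, CD28 and CD27 rose and GPRC5D and TNFRSF17 fell, with CD27 entering the test only through its high group. Over all genes tested 34.1% passed, 17.4% higher and 16.7% lower, and the median log2 fold change was 0.06 for the 10 genes and 0.04 for all. When each library was left out in turn, TNFRSF17, GPRC5D and FCRL5 passed in all 8 fits, and the number of the 10 genes that passed was between 3 (without MM.1S CTBP2 replicate 1 or MM.1S EV replicate 2) and 6 (without MM.1S EV replicate 1). Without both libraries whose line genes went against their labels 4 passed, namely FCRL5, CD28 and CD38 higher and TNFRSF17 lower, against 25.4% of genes. With lines as labelled 0 passed, against 3.34%, and 3 (GPRC5D, CD38 and CD28) had an unadjusted p under 0.05. Log2 fold changes here and below are of FPKM + 1, and so understate those of low genes. Scaling the libraries to equal totals without immunoglobulin genes and CTBP2 shifted the median over all genes tested from 0.04 to 0.27 on the log2 scale, and turned the split of genes that passed from 2186 higher and 2101 lower to 3809 higher and 869 lower.

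In MM.1S alone 4 of the 10 passed, against 5.47% of genes: GPRC5D, TNFRSF17 and TNFRSF13B fell and CD27 rose. CD27 entered the test only through the MM.1S CTBP2 libraries, so it had to differ here. In NCI-H929 alone 5 passed, against 32.9% of genes: FCRL5, CD38, LY9 and CD28 rose and TNFRSF17 fell. With the 2 libraries left out, the counts were 4 in MM.1S (GPRC5D, TNFRSF17 and TNFRSF13B lower and FCRL5 higher), against 12.4%, and 1 in NCI-H929 (FCRL5), against 15.3%. With lines as labelled they were 0 in each, against 0.0238% and 0.0556%, with 3 in MM.1S and 0 in NCI-H929 at an unadjusted p under 0.05. Of the 10 genes, 8 had libraries that lay apart by vector in MM.1S and 8 in NCI-H929, as did 63% and 68% of all genes tested, so lying apart within a line was common. These counts rest on 2 libraries per group and moved with single libraries. In each line, the fits where fewer of the 10 passed were also those where fewer of all genes passed. In MM.1S the count was 0 without MM.1S EV replicate 1 or MM.1S CTBP2 replicate 1, and 1 without MM.1S EV replicate 2 or the replicate 2 CTBP2 library labelled NCI-H929. It was 2 without either NCI-H929 EV library, and 5 without either NCI-H929 library with CTBP2. In NCI-H929 the count was 1 without NCI-H929 EV replicate 1 or the replicate 2 CTBP2 library labelled MM.1S, 2 without NCI-H929 EV replicate 2 and 6 without NCI-H929 CTBP2 replicate 1.

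**Figure D2:**
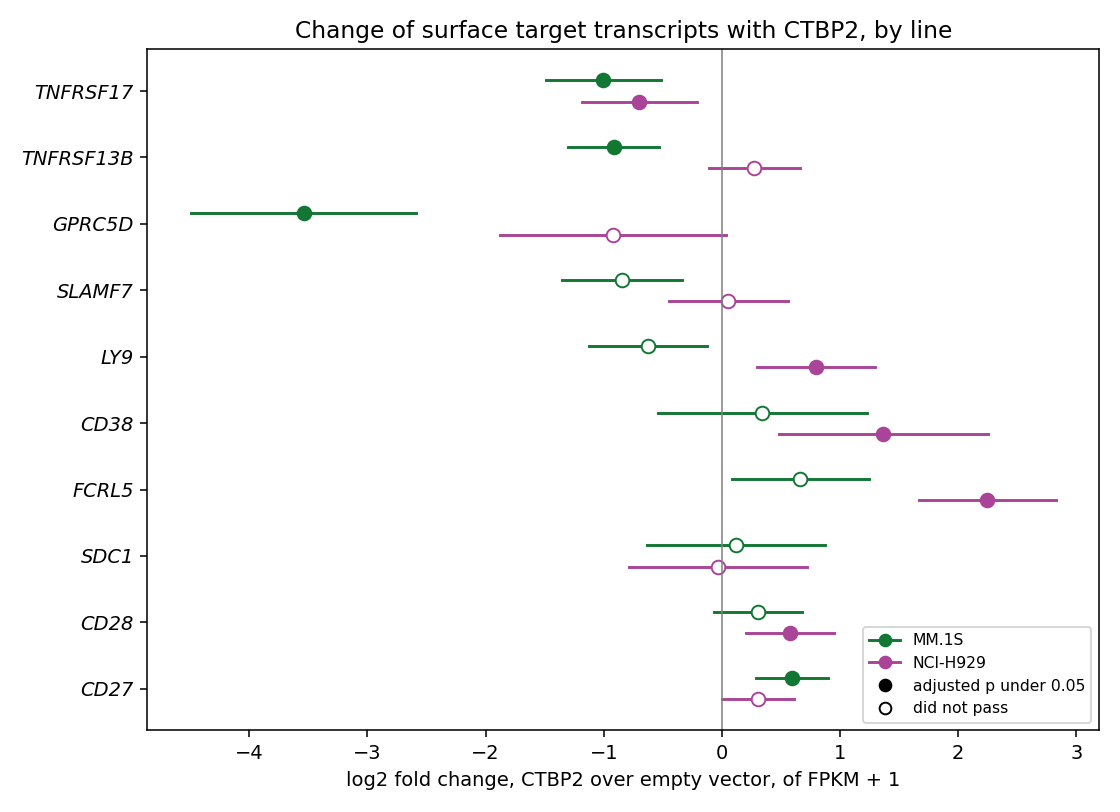
Log2 fold change of FPKM + 1, CTBP2 over empty vector (x axis), of the 10 transcripts (y axis) in MM.1S (green) and NCI-H929 (purple), with 95% confidence intervals from limma. Filled points passed at an adjusted p of 0.05. TNFRSF17 is the transcript that passed as lower in both lines, and GPRC5D has the lowest point, -3.54 in MM.1S.

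Of the receptors for BAFF and APRIL, TNFRSF17 fell with CTBP2 in both lines and TNFRSF13B was found in MM.1S alone at more than trace level. TNFRSF17 (Entrez 608), which encodes BCMA, was at 270.1 and 299.2 FPKM in MM.1S with empty vector and at 138.7 and 144.0 FPKM with CTBP2. NCI-H929 had it at 743.7 and 664.0 FPKM with empty vector and at 490.8 and 380.9 FPKM with CTBP2, the last being the library labelled MM.1S. All CTBP2 libraries lay below the empty vector libraries of their line, by 2.01-fold in MM.1S and 1.61-fold in NCI-H929 for the means. The log2 fold change was -0.85 in both lines together (SE 0.15, limma adjusted p = 0.00578) and -0.77 without the 2 libraries (limma adjusted p = 0.0162). Within the lines it was -1.0 in MM.1S (limma adjusted p = 0.0371) and -0.70 in NCI-H929 (limma adjusted p = 0.0375), or -1.03 and -0.52 without the 2 libraries, of which the second did not pass (limma adjusted p = 0.165). The within-line calls rest on few libraries: with 1 library left out, the MM.1S change passed in 2 of 8 fits (limma adjusted p up to 0.327) and the NCI-H929 change in 1 of 8 (up to 0.198). The NCI-H929 change also did not pass after quantile normalization (limma adjusted p = 0.0904) or with equal totals (0.213), and neither passed without a filter (0.0626 in MM.1S and 0.0512 in NCI-H929). Even with CTBP2, the NCI-H929 libraries held more TNFRSF17 than any MM.1S library. The line difference with empty vector was 1.30 on the log2 scale (SE 0.21, limma adjusted p = 0.00133).

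TNFRSF13B (Entrez 23495), which encodes TACI, was at 91.4 and 121.2 FPKM in MM.1S with empty vector and at 54.2 and 56.4 FPKM with CTBP2. Among NCI-H929 libraries it was listed at 0 and 0.0908 FPKM with empty vector and was at 0.252 and 0.274 FPKM with CTBP2, about 0, 2.1, 6.5 and 7.4 fragments, near the limit of these libraries. The transcript thus passed the filter only through MM.1S. It fell in MM.1S by 0.92 on the log2 scale (SE 0.17, limma adjusted p = 0.0248), or by 0.95 without the 2 libraries (limma adjusted p = 0.0352). That call was lost in 4 of the 8 fits with 1 library left out (limma adjusted p up to 0.228), with equal totals (0.0517), without a filter (0.0522) and with a pseudocount of 0.1 (0.107). In both lines together it did not pass (-0.32, limma adjusted p = 0.283). In both replicate 2 CTBP2 libraries its level went with the line genes and not with the label.

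Of 12 other genes of BAFF and APRIL signalling, 10 were tested, and 4 rose and 0 fell in both lines together, where 34.1% of all genes passed and 17.4% rose (median log2 fold change 0.36, against 0.04 for all genes). BIRC3, a ubiquitin ligase of this pathway, rose from 15.9 and 18.6 to 55.9 and 37.5 FPKM in MM.1S and from 1.43 and 0.888 to 4.28 and 7.59 FPKM in NCI-H929 (log2 fold change 1.51, SE 0.19, limma adjusted p = 0.00277). The adaptors TRAF5 and TRAF1 rose by 1.09 and 0.72, and MAP3K14, the kinase NIK of non-canonical NF-kappaB signalling, rose by 0.58. Every CTBP2 library was above the empty vector libraries of its line for these 4 genes. In the 6 remaining libraries 3 of 10 passed, against 25.4% of genes, all but MAP3K14 (0.50, limma adjusted p = 0.0541). The ligand gene TNFSF13, or APRIL, was at 5.60 to 7.57 FPKM in the MM.1S libraries and at 0.270 to 0.354 FPKM in those of NCI-H929, and TNFSF13B, or BAFF, was at most 0.592 FPKM in any library.

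GPRC5D (Entrez 55507) had the largest change among the 10 genes in MM.1S. It was at 104.9 and 69.8 FPKM in MM.1S with empty vector and at 6.20 and 6.69 FPKM with CTBP2. In NCI-H929 it was at 39.7 and 42.8 FPKM with empty vector, and with CTBP2 at 36.3 FPKM in NCI-H929 CTBP2 replicate 1 and 12.3 FPKM in the replicate 2 library labelled MM.1S. All 4 CTBP2 libraries lay below all 4 empty vector libraries, as for 7.45% of all genes tested, although 36.3 lies close to 39.7 FPKM. In MM.1S the mean was 13.6-fold lower with CTBP2, and GPRC5D went from percentile 93.4 of the tested genes to 43.7. The log2 fold change in MM.1S was -3.54 (SE 0.42, limma adjusted p = 0.00624), or -3.59 without the 2 libraries (limma adjusted p = 0.00145). The MM.1S change did not pass without MM.1S EV replicate 1 (limma adjusted p = 0.0615) or without MM.1S CTBP2 replicate 1 (limma adjusted p = 0.0824). In NCI-H929 it was -0.92 (95% interval -1.88 to 0.03, limma adjusted p = 0.121), and -0.18 without the 2 libraries (limma adjusted p = 0.681), so the value there came mostly from 1 library. In both lines together GPRC5D fell by 2.23 (SE 0.51, limma adjusted p = 0.0123), and the value without the 2 libraries was -1.88 (limma adjusted p = 0.0564), which did not pass. GPRC5A and GPRC5C, relatives of GPRC5D, were at most 0.0938 and 0.0421 FPKM in any library. GPRC5B, another relative, was at 0.154 to 0.557 FPKM with empty vector and at 0.198 to 1.44 FPKM with CTBP2, and was not tested.

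The SLAM family members differed between the lines. SLAMF7 (Entrez 57823), the target of elotuzumab, was at 242.8 and 251.9 FPKM in MM.1S with empty vector and at 125.4 and 150.0 FPKM with CTBP2. The NCI-H929 libraries had it at 110.3 and 163.0 FPKM with empty vector and at 136.4 and 142.0 FPKM with CTBP2. The MM.1S groups lay apart, while in NCI-H929 the CTBP2 values fell between those with empty vector. On the log2 scale the change was -0.85 in MM.1S (SE 0.22, limma adjusted p = 0.0615), 0.05 in NCI-H929 (95% interval -0.45 to 0.56) and -0.40 in both lines together (limma adjusted p = 0.162), and none of these passed. Without the 2 libraries they were -0.97, 0.02 and -0.47, which also did not pass, and the NCI-H929 value turned to -0.07 after rescaling by the median of ratios. With empty vector SLAMF7 was lower in NCI-H929 by 0.88 on the log2 scale (limma adjusted p = 0.0106), a difference that did not pass without MM.1S EV replicate 2 (0.0566) or without NCI-H929 EV replicate 1 (0.0873).

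LY9 (Entrez 4063), or CD229, was at 46.5 and 42.9 FPKM in MM.1S with empty vector and at 31.2 and 26.3 FPKM with CTBP2. NCI-H929 had it at 20.6 and 28.8 FPKM with empty vector and at 36.6 and 50.5 FPKM with CTBP2, the last in the library labelled MM.1S. All MM.1S CTBP2 values were thus below, and all NCI-H929 CTBP2 values above, those with empty vector. The log2 fold change was -0.62 in MM.1S (limma adjusted p = 0.117) and 0.79 in NCI-H929 (SE 0.22, limma adjusted p = 0.0269), and without the 2 libraries -0.51 and 0.57 (limma adjusted p = 0.191 and 0.144), so the NCI-H929 call did not hold without them. Both lines together gave 0.08 (limma adjusted p = 0.824). With empty vector LY9 was lower in NCI-H929 by 0.85 (limma adjusted p = 0.0118), which did not pass without MM.1S EV replicate 1 (0.0677) or without NCI-H929 EV replicate 1 (0.0894). Of 9 other SLAM family genes and adaptors, 3 were tested in both lines together, and 1, CD48, fell, against 34.1% of all genes that passed and 16.7% that fell. CD48, the ligand of the SLAM receptor CD244, was at 256.1 and 255.3 FPKM in MM.1S with empty vector and 160.7 and 162.0 FPKM with CTBP2. NCI-H929 libraries had it at 739.4 and 606.9 FPKM with empty vector and 348.7 and 251.8 FPKM with CTBP2 (log2 fold change in both lines -0.92, SE 0.17, limma adjusted p = 0.00685). With the 2 libraries left out, the log2 fold change of CD48 in both lines together was -0.80.

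CD38 (Entrez 952), the target of daratumumab, was at 27.7 and 17.7 FPKM in MM.1S with empty vector and at 39.2 and 20.5 FPKM with CTBP2, so these groups overlapped. The NCI-H929 libraries had it at 12.6 and 18.4 FPKM with empty vector and at 30.4 and 54.9 FPKM with CTBP2, which lay apart. On the log2 scale the change was 0.34 in MM.1S (95% interval -0.54 to 1.22) and 1.37 in NCI-H929 (SE 0.38, limma adjusted p = 0.0297). In the 6 remaining libraries it was 0.95 in NCI-H929 and did not pass (limma adjusted p = 0.0749). In both lines together the value was 0.85 (limma adjusted p = 0.0574), and without the 2 libraries it was 0.87 and passed (limma adjusted p = 0.0230), as it did without MM.1S EV replicate 1 alone (0.0289) or the replicate 2 CTBP2 library labelled NCI-H929 alone (0.0127). BST1, the paralog of CD38, was at most 0.114 FPKM in any library. Of 8 other ectoenzyme and related genes 4 were tested and 0 passed by limma at an adjusted p of 0.05 in both lines together, against 34.1% of all genes. NT5E, or CD73, and ENTPD1, or CD39, had log2 fold changes of 0.77 and -0.21 there. In NCI-H929 alone NT5E passed as higher (1.30, limma adjusted p = 0.0144).

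FCRL5 (Entrez 83416) was near the floor in MM.1S and higher in NCI-H929. It was at 0.182 and 0.304 FPKM in MM.1S with empty vector and at 1.30 and 0.683 FPKM with CTBP2. NCI-H929 had it at 3.27 and 4.53 FPKM with empty vector and at 17.5 and 27.7 FPKM with CTBP2. All CTBP2 libraries were above the empty vector libraries of their line, and the mean was 5.79-fold higher with CTBP2 in NCI-H929 and 4.08-fold higher in MM.1S. On the log2 scale FCRL5 rose by 2.24 in NCI-H929 (SE 0.25, limma adjusted p = 0.00149), or by 1.93 without the 2 libraries (limma adjusted p = 0.00424). It passed in NCI-H929 with any 1 library left out. In MM.1S the value was 0.66 and did not pass (limma adjusted p = 0.142). Without the 2 libraries it was 0.89 and passed, with 1 MM.1S CTBP2 library left in that fit. With a pseudocount of 0.1 the MM.1S value was 1.63 and passed (limma adjusted p = 0.0496). In both lines together FCRL5 rose by 1.45 (SE 0.31, limma adjusted p = 0.00996), or by 1.41 without the 2 libraries (limma adjusted p = 0.00765). With empty vector FCRL5 was higher in NCI-H929 by 1.97 (SE 0.25, limma adjusted p = 0.000386).

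Among 10 relatives of FCRL5 and GPRC5D, 6 were tested, and 3 rose and 0 fell in both lines together, against 34.1% of all genes that passed and 17.4% that rose. FCRL6, FCRL1 and FCRLB rose by 1.16, 0.76 and 0.52, all from levels below 6 FPKM with empty vector. FCRL6 reached 1 FPKM in the MM.1S CTBP2 libraries alone (2.66 and 3.80) and FCRL1 in the NCI-H929 CTBP2 libraries alone (2.06 and 3.90), so both entered the test only through their high group and had to differ. Without the 2 libraries 0 of 4 tested passed by limma, against 25.4%. FCRL2 was at 28.8 and 29.2 FPKM in NCI-H929 with empty vector and at 27.5 and 32.0 FPKM with CTBP2, against 0.122 to 0.395 FPKM in MM.1S, so its libraries separated by line and not by vector.

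SDC1 (Entrez 6382), the CD138 used to sort plasma cells, was high in every library. It was at 270.7 and 341.9 FPKM in MM.1S with empty vector and at 315.4 and 344.7 FPKM with CTBP2. In NCI-H929 it was at 191.6 and 340.7 FPKM with empty vector and at 198.4 and 314.1 FPKM with CTBP2. The groups overlapped in both lines, and the 2 NCI-H929 libraries of a vector lay farther from each other than the vectors did. The log2 fold change in both lines together was 0.04 (95% interval -0.46 to 0.54, limma adjusted p = 0.896), an interval that spans changes of about 0.5 in either direction. Its sign turned to -0.03 after rescaling by the median of ratios, and to -0.16 without the 2 libraries. Of 23 other genes of syndecans and heparan sulfate synthesis 22 were tested, of which 6 rose and 1 fell in both lines together (median 0.03), against 17.4% and 16.7% of all genes and 34.1% in either direction. The syndecans SDC2 and SDC4 rose by 0.71 and 0.67, SDCBP, the syndecan-binding protein syntenin, rose by 0.47, and EXTL2, a glycosyltransferase, rose by 0.48. SDC2 and SDC4 were low, at most 3.03 and 5.64 FPKM in any library, and SDC2 reached 1 FPKM in 1 empty vector library and 3 CTBP2 libraries. B4GALT7, an enzyme of the linker that joins heparan sulfate to the protein core, fell by 0.45. With the 2 libraries left out, 4 rose and 1 fell, against 25.4% of genes in either direction.

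The costimulatory receptors moved with CTBP2 at very different levels. CD28 (Entrez 940) was at 55.2 and 46.9 FPKM in MM.1S with empty vector and at 67.6 and 59.1 FPKM with CTBP2. The NCI-H929 libraries had it at 43.3 and 48.6 FPKM with empty vector and at 66.3 and 71.3 FPKM with CTBP2. All 4 CTBP2 libraries lay above all 4 empty vector libraries, as for 7.21% of all genes. The rise was small, 0.44 on the log2 scale in both lines together (SE 0.12, limma adjusted p = 0.0227), and 0.46 without the 2 libraries (limma adjusted p = 0.0477). It did not pass without MM.1S CTBP2 replicate 1 (0.0689), MM.1S EV replicate 2 (0.0650), NCI-H929 EV replicate 1 (0.0740) or NCI-H929 EV replicate 2 (0.0586). In NCI-H929 it was 0.57 (limma adjusted p = 0.0300), and 0.52 without the 2 libraries, which did not pass (limma adjusted p = 0.129). In MM.1S it was 0.31 (limma adjusted p = 0.261).

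CD27 (Entrez 939) was at 0.389 and 0.385 FPKM in MM.1S with empty vector and at 1.0 and 1.18 FPKM with CTBP2. NCI-H929 had it at 0.0434 and 0.188 FPKM with empty vector and at 0.434 and 0.323 FPKM with CTBP2. The transcript was low in all 8 libraries and passed the filter only through the MM.1S libraries with CTBP2, and a gene that enters through its high group had to differ. The log2 fold change was 0.45 in both lines together (SE 0.12, limma adjusted p = 0.0218) and 0.59 in MM.1S (limma adjusted p = 0.0438), and 0.31 in NCI-H929 (limma adjusted p = 0.109). It was not tested without the 2 libraries or without either MM.1S library with CTBP2, and did not pass without MM.1S EV replicate 2 (0.0603) or NCI-H929 EV replicate 1 (0.0584).

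Of 12 partners of CD28 and CD27, 8 were tested, and 3 rose and 1 fell in both lines together (median 0.30), where 34.1% of all genes passed. CD86, a ligand of CD28, was at 5.21 to 6.01 FPKM in MM.1S with empty vector and 13.6 to 18.5 FPKM with CTBP2. In NCI-H929 it was at 0.396 and 1.68 FPKM with empty vector and at 1.77 and 5.78 FPKM with CTBP2. Its log2 rise in both lines together was 1.26 (SE 0.29, limma adjusted p = 0.0125), and it passed in neither line alone. PIK3R1, a regulatory subunit of the phosphoinositide 3-kinase that CD28 binds, rose by 1.22, and VAV1, a signalling protein downstream of CD28, rose by 0.34. SIVA1, which binds the CD27 tail, fell by 0.91. In the 6 remaining libraries 3 rose and 0 fell, against 25.4% of genes in either direction. CD70, the ligand of CD27, was at 52.1 and 71.4 FPKM in MM.1S with empty vector and at 22.8 and 32.4 FPKM with CTBP2, while in NCI-H929 it was at 0.975 and 1.17 and at 3.87 and 4.26 FPKM.

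CD28 and CD27 are also T cell genes, and both T cell markers that were tested, CD3E and TRAT1, moved with CTBP2 in some comparison. Summed over 9 T cell markers the level was 2.25 to 18.2 FPKM with empty vector and 10.4 to 55.1 FPKM with CTBP2. These ranges pool the lines, which went in opposite directions. The sum fell with CTBP2 in MM.1S, where TRAT1 was its largest part, and rose in NCI-H929, where CD3E was. CD3E was at 0.527 to 3.65 FPKM with empty vector and 2.44 to 53.1 FPKM with CTBP2, and rose by 2.13 (SE 0.45, limma adjusted p = 0.00925), or by 1.91 without the 2 libraries (limma adjusted p = 0.00488). TRAT1, a T cell receptor associated adaptor, was at 16.4 and 16.6 FPKM in MM.1S with empty vector and at 6.07 and 6.67 FPKM with CTBP2, and at most 0.0707 FPKM in NCI-H929. It fell by 1.25 in MM.1S (limma adjusted p = 0.00534) and passed in the difference between lines (limma adjusted p = 0.0303), and in both lines together it did not pass (-0.63, limma adjusted p = 0.0587). Below 1 FPKM in all 8 libraries were 7 of the 9 T cell markers, CD3D, CD3G, CD2, CD8A and CD4 among them. CD2 was listed at 0 in all empty vector libraries and was at 0.185 to 0.955 FPKM with CTBP2. CD8A was at 0 to 0.0407 FPKM with empty vector and at 0.0872 to 0.238 FPKM with CTBP2. For the others of these 7 the vectors overlapped. Of 9 plasma cell markers 4 fell with CTBP2 and 0 rose in both lines together, against 16.7% of all genes that fell, or 5 and 0 without the 2 libraries, against 25.4% in either direction. They were IRF4 (-1.17), FKBP11 (-1.05), MZB1 (-0.67) and DERL3 (-0.67), and the other 5 did not pass. Of the surface targets, TNFRSF17 and GPRC5D fell too. FCRL5, CD28 and CD27 rose, and the others, SDC1 (CD138) and CD38 among them, did not pass. The part of either marker list in the results was not tested.

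**Figure D3:**
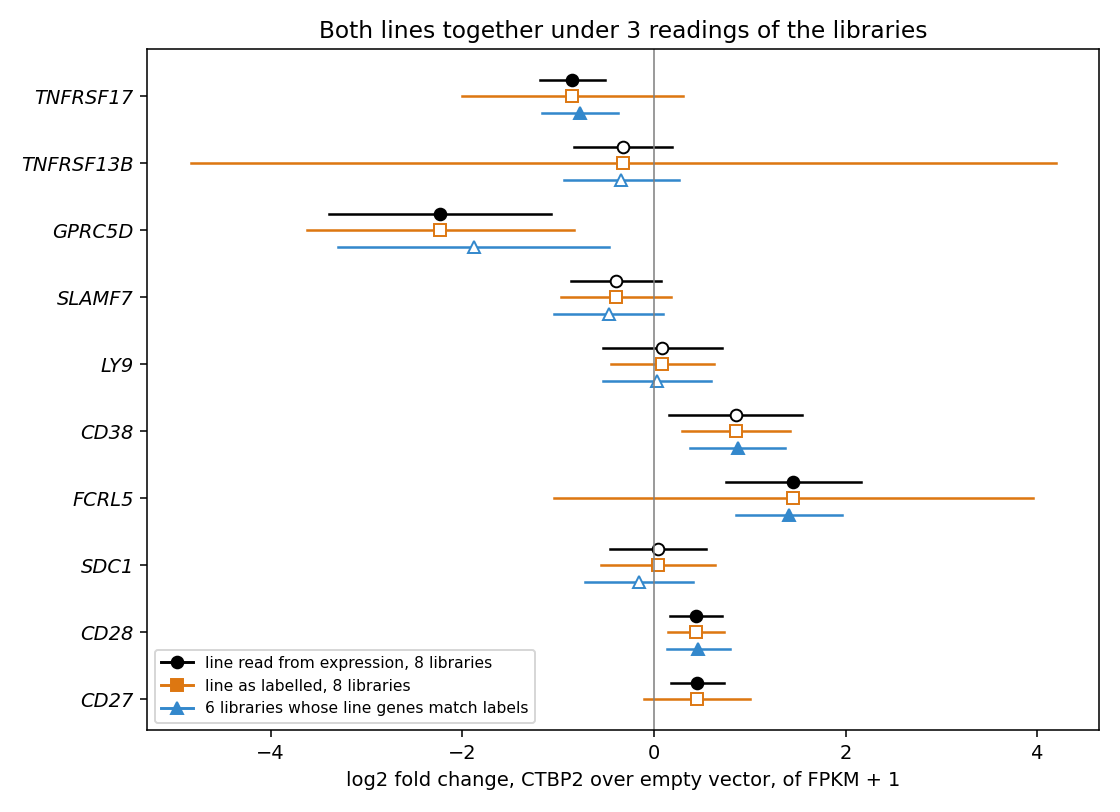
Log2 fold change of FPKM + 1, CTBP2 over empty vector (x axis), in both lines together for the 10 transcripts (y axis), under the line read from expression (circles), the line as labelled (squares) and the 6 libraries whose line genes match their labels (triangles), with 95% confidence intervals. Filled symbols passed at an adjusted p of 0.05. The point estimates with lines read and lines as labelled are the same, and the intervals of TNFRSF17, FCRL5 and TNFRSF13B widen with lines as labelled.

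Whether the change with CTBP2 differed between the lines was tested as the NCI-H929 change minus the MM.1S change. By limma 0 of the 10 genes passed, against 1.26% of genes, and 5 had an unadjusted p under 0.05. These were GPRC5D (2.62, limma adjusted p = 0.0812), FCRL5 (1.58, 0.0813), LY9 (1.42, 0.0736), TNFRSF13B (1.19, 0.0590) and SLAMF7 (0.90, 0.218). FCRL5 was low in MM.1S, where adding 1 FPKM shrinks its log2 change more than in NCI-H929. Its means rose 4.08-fold in MM.1S and 5.79-fold in NCI-H929. For TNFRSF17 the difference was 0.30 (95% interval -0.38 to 0.99) and for CD28 0.27 (95% interval -0.26 to 0.79). Without the 2 libraries GPRC5D passed at 3.41 (SE 0.37, limma adjusted p = 0.0215), against 0.141% of genes. With single libraries left out, 3 passed without NCI-H929 CTBP2 replicate 1, 1 without the replicate 2 CTBP2 library labelled MM.1S and 0 in each other fit. Among these single-library fits, more of the 10 passed where more of all genes passed. With lines as labelled 0 passed, against 0.0159%, and 1 had an unadjusted p under 0.05.

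**Figure D4:**
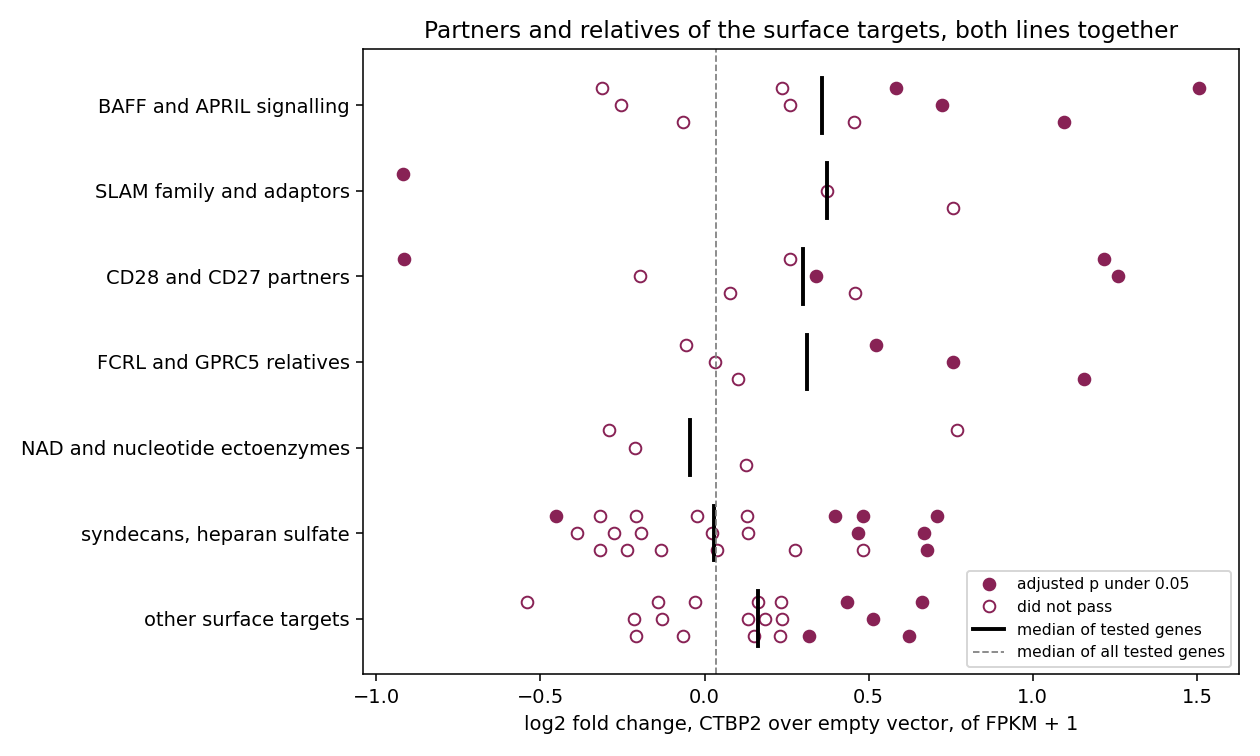
Log2 fold change of FPKM + 1, CTBP2 over empty vector in both lines together (x axis), of each tested gene in 7 lists of partners and relatives of the surface targets (y axis). Filled points passed at an adjusted p of 0.05, thick bars are list medians and the dashed line is the median of all tested genes, 0.04. BIRC3 has the highest point, 1.51, and CD48 and SIVA1 are the 2 lowest, at -0.92 and -0.91.

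Other surface proteins proposed as myeloma targets, and complement regulators, gave 5 higher and 0 lower of 19 tested (of 23 listed) in both lines together, with a median of 0.16, against 17.4% of all genes higher and 34.1% in either direction. IL6R, the interleukin-6 receptor, was at 73.5 to 92.0 FPKM with empty vector and 107.5 to 124.1 FPKM with CTBP2, and rose by 0.43 (limma adjusted p = 0.0254). The adhesion molecule ICAM1 rose by 0.66, the growth factor receptor IGF1R by 0.62 and CD79A, a B cell receptor component, by 0.51. CD79A reached 1 FPKM in the MM.1S CTBP2 libraries alone (1.60 and 1.18, with 0.909 the highest elsewhere), so it entered only through its high group and had to differ. With the 2 libraries left out, 1 of 18 passed, ICAM1, against 25.4% of genes. With lines as labelled 0 of the genes in this list passed by limma in both lines together, against 3.34% of all genes.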

How the data were processed

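A TruSeq kit made the libraries, per the labels' protocols. STAR 2.6.0b-1 and HTSeq 0.9.1 stand in the submitters' processing notes, next to Trimmomatic 0.36.5, with GRCh37 as the genome build. The values are FPKM as deposited by the authors, with the unit taken from the name of their table; the tool that made them is not given in the sources used here. Promoters are from RefSeq (GRCh38.p14), matched by symbol.

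The 12583 genes that reached 1 FPKM in 2 or more libraries were tested as log2(FPKM + 1) with limma 3.58.1 in R 4.3.3, with a mean-variance trend and Benjamini-Hochberg adjustment over all of them. Both lines together used line and vector as terms, and the other comparisons used 4 group means in a fit of all 8 libraries. Nothing states more of the duplicates than that they are biological, so p-values measure the spread between these libraries. The alternatives were another pseudocount, filters, scalings, variance model, replicate block, line reading, libraries left out and a minimum fold.

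The members and the gene lists were chosen with earlier results of these data known. Named are all members, and of each list up to 4 genes that passed in both lines together, by smallest p, or 2 as values. TNFSF13, TNFSF13B, GPRC5A, GPRC5B, GPRC5C, BST1, FCRL2, CD70 and B4GALT7 were named after their values were seen. The result of 1 further list is not reported here.

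Depth was estimated from the spacing of low values and was not used as counts. Of these values 51.0 to 61.1% gave a whole number of fragments to within 0.1. For a depth fixed in advance 20.0% would do so by chance. The depth was chosen to fit these same values, so 20.0% is not its chance level. The code was tested on simulated data for both lines together over 12583 genes. All 100 genes changed by 1 and all 100 changed by 2 on the log2 scale were recovered, with 3 false calls. The simulation gave every gene the same spread and changed only genes above a minimum level. Recovery of low genes, or of genes with a wider spread, was therefore not tested.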

Additional observations from a re-analysis of the deposited data

Results flagged for a closer look

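LY9 moved in opposite directions in the lines, with every MM.1S CTBP2 library below and every NCI-H929 CTBP2 library above the empty vector libraries of its line. The NCI-H929 change exceeded the MM.1S change by 1.42 on the log2 scale, and that difference did not pass (limma adjusted p = 0.0736). TNFRSF13B had the same arrangement of libraries, with a difference of 1.19 that did not pass either (limma adjusted p = 0.0590), and in NCI-H929 it rests on at most 7.4 estimated fragments per library.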

How the results depend on the processing

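Across the 11 alternatives other than leaving out single libraries, 458 values of the members kept their direction and their side of the threshold, 51 no longer passed, 13 newly passed and 13 turned their sign. In both lines together TNFRSF13B turned to 0.23 with a pseudocount of 0.1, and SDC1 to -0.028 after median-of-ratios rescaling and -0.16 without both CTBP2 replicate 2 libraries. In NCI-H929 SLAMF7 turned to -0.0686 after median-of-ratios rescaling, and SDC1 to 0.37 after quantile normalization, 0.37 with equal totals and 0.033 with lines as labelled. The difference between lines turned for SDC1 to 0.0081 after quantile normalization and 0.066 with equal totals, and with lines as labelled for TNFRSF17 to -1.09, CD38 to -0.36, FCRL5 to -2.51 and CD27 to 0.44. The cause was not tested.

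With lines as labelled 0 members passed in both lines together, in MM.1S, in NCI-H929 and between the lines, where 420, 3, 7 and 5 genes passed, and 2 genes in the difference. A minimum log2 fold change of 1 left 2, 2, 2 and 3 members and 669, 295, 1428 and 3042 genes, a stricter call by construction. Without a filter 2 members passed in MM.1S, with 384 genes, and 2 in NCI-H929. Without both CTBP2 replicate 2 libraries 1 member passed in NCI-H929, with 1849 genes, and 1 in the difference, with 17 genes, while MM.1S had 1492 genes. In the difference 1 member passed with equal totals. A filter of 5 FPKM left 422 genes in MM.1S and 62 in the difference, and a pseudocount of 0.1 left 67 in the difference.

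With single libraries left out, 3 to 6 members passed in both lines together, 0 to 5 in MM.1S, 1 to 6 in NCI-H929, 0 to 3 in the difference and 3 to 6 between the lines, with 2452 to 4417, 6 to 1514, 976 to 4869, 5 to 208 and 4586 to 6956 genes. Signs turned for SDC1, at -0.11 to 0.22 in both lines, -0.052 to 0.28 in MM.1S, -0.45 to 0.38 in NCI-H929, -0.56 to 0.26 in the difference and -0.66 to 0.16 between the lines. They also turned for LY9 in both lines (-0.15 to 0.27), CD38 in MM.1S (-0.11 to 0.79) and SLAMF7 in NCI-H929 (-0.23 to 0.33).

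The labels give no sign that a replicate number stands for shared cultures or dates. Deviations of same-numbered libraries correlated at 0.435 between the vectors in MM.1S and 0.452 in NCI-H929, and at -0.275 to 0.0273 between the lines. Same-numbered libraries thus varied together within a line and not between lines. The main fit did not use the pairing. The replicate block gave both lines the same replicate term, so pairing within each line was not fitted. With the replicate block 5, 2, 4, 0 and 5 members and 3717, 412, 3614, 60 and 6140 genes passed in both lines, MM.1S, NCI-H929, the difference and between the lines, and TNFRSF17 did not pass in MM.1S (limma adjusted p = 0.0640) or NCI-H929 (0.0567). The members at low FPKM, CD27 in all libraries and TNFRSF13B in NCI-H929, are limited by depth.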

Other observations

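For each member that passed in both lines together, the tested genes most alike across the 8 libraries were found by Pearson r of log2(FPKM + 1), as a description, since the points share line and vector. TNFRSF17 was most like CRELD2 (r = 0.991), PARP2 (0.99) and ELFN1-AS1 (0.989), and CD28 like PIKFYVE (0.996), KLHL36 (0.987) and PRKAR1A (0.986). GPRC5D had lower values, with DMC1 at 0.948, HSD17B8 at 0.937 and MPND at 0.937. CD27 was most like RBM11 (0.982), TTC9 (0.981) and PSKH1 (0.974). FCRL5 was most like GOLGA8K, GOLGA8R and GOLGA8T, 3 near-identical copies whose reads may be split, at 0.996, 0.996 and 0.995.

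Of 9 myeloid and stromal markers 8 were below 1 FPKM in all libraries, and ITGAM, the integrin CD11b, was at 0.17 and 0.218 FPKM in MM.1S with empty vector and at 4.14 and 2.21 FPKM with CTBP2. In NCI-H929 it was listed at 0 and at 0.0588 FPKM with empty vector and was at 0.165 and 0.917 FPKM with CTBP2. It reached 1 FPKM in the MM.1S CTBP2 libraries alone, so it entered the test only through its high group and had to differ. In both lines together ITGAM rose by 1.15 on the log2 scale (SE 0.28, limma adjusted p = 0.0148). It was not tested without both CTBP2 replicate 2 libraries.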
